A study of Mus musculus with 4 samples.

Results

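U1 small nuclear RNA is the RNA of the U1 small nuclear ribonucleoprotein, and in mouse it is encoded by many gene copies of nearly the same sequence. The copies described here are the genes of GENCODE biotype snRNA that are 160 to 168 bases long and had at least 1 count summed over the 4 libraries. This gave 41 of the 47069 genes in the table, and of the 100 snRNA genes in that length range the other 59 were at 0. The copies were thus selected on their summed count, so the totals below are a description.

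All 4 libraries came from Lewis lung carcinoma, an established mouse lung carcinoma cell line, grown as tumours in C57BL/6 mice after subcutaneous inoculation and taken 3 weeks later. The tumour group is 2 libraries of primary tumour RNA. The exosome group is 2 libraries of RNA from vesicles that cut tumour pieces released during 12 h in RPMI medium without serum, after a 0.2 µm filter and a precipitation reagent in place of ultracentrifugation. The tumour pieces also hold host cells, and the labels do not say whether the 2 libraries of a group come from separate animals, so a p-value here speaks for the spread of these libraries alone. The question of the study was how the RNA of exosomes differs from that of the tumour they come from.

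The exosome libraries held 305751 and 217201 counts and the tumour libraries 14543691 and 10849811. A count of 0 in a tumour library allows a share of up to 2.06e-05% or 2.77e-05%, and in an exosome library up to 0.000981% or 0.00138% (3 counts). Reads carry no molecular identifiers, so these limits and all intervals cover counting error only. Most of the cell type markers looked at had few counts in both groups. Of 5 carcinoma and epithelial markers, Krt19, Epcam and Cdh1 were at 0 in all 4 libraries, and the list summed to 1 and 1 exosome counts and 13 and 4 tumour counts. Per library total, in CPM, markers of host cells were higher in exosomes, as U1 was. On that scale 63.8% of all tested genes were called higher. The carcinoma and epithelial list also had more, 3.27 and 4.60 CPM in exosomes against 0.894 and 0.369 in tumour. With the TMM scaling described below, no listed marker was called higher. The red cell markers Hba-a1 and Hba-a2 were then called lower (log2 difference -1.08 and -1.04, edgeR adjusted p = 0.00928 each). Macrophage markers had 6.54 and 36.8 CPM in exosomes (2 and 8 counts) against 3.92 and 3.50 in tumour (57 and 38 counts). Neutrophil markers had 49.1 and 50.6 CPM (15 and 11 counts) against 3.71 and 0.922 (54 and 10 counts). All of these counts were of S100a8 and S100a9, since Ly6g, Mpo and Elane were at 0 in all 4 libraries. Fibroblast markers had 78.5 and 96.7 CPM (24 and 21 counts) against 9.42 and 7.65 (137 and 83 counts), and red cell markers had 268.2 and 469.6 CPM (82 and 102 counts) against 112.9 and 80.5 (1642 and 873 counts). Their part in the U1 values was not tested.

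The U1 particle finds the 5′ splice site of an intron by base pairing with the 5′ end of its RNA, and it also protects nascent transcripts from early cleavage and polyadenylation. The RNA is made by RNA polymerase II, assembled with a ring of Sm proteins in the cytoplasm and returned to the nucleus. Its first stem-loop binds the protein Snrnp70 and its second binds Snrpa. Mouse has a major form, U1a, and a form called U1b that is known from embryos and from adult tissues with dividing cells.

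The sequences below are shown because some copies that differ at 1 base had very different counts, while the Rnu1a1, Rnu1b6 and Gm25890 sequences, which differ at several, had about equal counts in exosomes. They are the annotated transcripts of GENCODE M21 on GRCm38, 5′ to 3′, in DNA letters. In Rnu1a1 the capitals mark the first 11 bases, which pair with the 5′ splice site. In the others, capitals mark bases that differ from Rnu1a1.
Rnu1a1: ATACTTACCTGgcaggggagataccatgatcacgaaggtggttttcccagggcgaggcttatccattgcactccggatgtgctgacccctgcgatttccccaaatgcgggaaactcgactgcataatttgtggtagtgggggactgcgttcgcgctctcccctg
Rnu1b6: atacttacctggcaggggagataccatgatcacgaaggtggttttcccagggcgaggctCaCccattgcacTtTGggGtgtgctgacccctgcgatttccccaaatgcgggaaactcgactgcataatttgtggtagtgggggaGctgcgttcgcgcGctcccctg
Gm25890: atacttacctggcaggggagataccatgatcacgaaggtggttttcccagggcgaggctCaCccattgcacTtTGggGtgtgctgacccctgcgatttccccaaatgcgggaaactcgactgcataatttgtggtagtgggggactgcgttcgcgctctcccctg
Rnu1b1: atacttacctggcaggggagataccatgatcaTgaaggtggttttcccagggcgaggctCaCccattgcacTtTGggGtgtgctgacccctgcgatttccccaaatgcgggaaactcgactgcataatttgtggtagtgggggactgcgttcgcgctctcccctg
Gm24305: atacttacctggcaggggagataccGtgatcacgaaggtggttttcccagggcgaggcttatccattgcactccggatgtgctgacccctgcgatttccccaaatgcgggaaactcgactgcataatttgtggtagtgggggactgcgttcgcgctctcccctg
Gm22042: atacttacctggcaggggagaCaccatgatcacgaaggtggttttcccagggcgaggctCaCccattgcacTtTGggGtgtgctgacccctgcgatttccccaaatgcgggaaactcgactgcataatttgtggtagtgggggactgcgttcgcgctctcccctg
Gm25189: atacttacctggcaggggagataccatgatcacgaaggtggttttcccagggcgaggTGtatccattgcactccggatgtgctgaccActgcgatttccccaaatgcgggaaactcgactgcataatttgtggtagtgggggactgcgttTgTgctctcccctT
Gm22155: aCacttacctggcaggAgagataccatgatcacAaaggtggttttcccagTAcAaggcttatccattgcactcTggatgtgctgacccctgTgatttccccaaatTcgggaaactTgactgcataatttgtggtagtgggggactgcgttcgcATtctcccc
Rnu1a1 lies at chr11:87422867-87423030 on the plus strand, in an intron of Tex14. Rnu1b6 (chr3:96460024-96460189, minus strand), Gm25890 (chr3:96486555-96486719, minus strand) and Rnu1b1 (chr3:96359953-96360117, minus strand) lie in the chromosome 3 cluster. Gm24305 (chr12:54734555-54734718, minus strand) lies in the chromosome 12 cluster. Gm22042 (chr4:51812483-51812647, minus strand), Gm25189 (chr2:117248271-117248434, plus strand) and Gm22155 (chr6:6924118-6924279, minus strand) are single copies that overlap no other gene.

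The 41 copies had 31 different sequences, since 14 copies fell into 4 sets of identical sequence. The largest set is Rnu1a1 with Gm22068, Gm22634, Gm23804, Gm25679, Gm26444 and Gm22317, 7 copies on chromosomes 11 and 12. The others are Rnu1b6 with Gm24830 and Gm26232, Gm25890 with Gm22614, and Rnu1b1 with Rnu1b2. By alignment 29 copies were nearest to Rnu1a1 and 12 to Rnu1b6. Identity to the nearer of Rnu1a1 and Rnu1b6 was 77.4% to 100% with a median of 97.6%. The 59 genes at 0 were taken by biotype and length alone and were less alike, at 51.5% to 89% with a median of 75%, and 51 of them were at least 70% identical to Rnu1a1 or Rnu1b6. The closest of them was Gm23510 at 89%.

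Both strands of each gene were searched for 4 stretches of U1 that are known to bind partners. The 11 bases ATACTTACCTG stood at the 5′ end of 30 of the 41 (73.2%) and of 2 of the 59 at 0 (3.39%), or 32% of all 100 genes of this length. The letters ATCACGA, in the loop of the first stem-loop at bases 29 to 35 of Rnu1a1, were in 30 of 41 (73.2%) and 4 of 59 (6.78%), or 34% of all 100. ATTGCAC, in the loop of the second stem-loop at bases 65 to 71, was in 37 of 41 (90.2%) and 14 of 59 (23.7%), or 51% of all 100. TTTGTGG, in the Sm site at bases 127 to 133, was in 38 of 41 (92.7%) and 13 of 59 (22%), also 51% of all 100. On the opposite strand the 4 motifs were found 0 times in the counted copies and, in the order given, in 0, 1, 0 and 2 of the genes at 0. Of the 51 genes at 0 that were at least 70% identical, 2, 4, 14 and 12 held the motifs on the transcript's strand. Of 1283 other small nuclear RNA genes, 1.09%, 0.312%, 1.71% and 3.2% held the 4 motifs. None of these motifs overlaps another. The copies were separated by their counts, so these shares are a description.

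In the genome, 17 of the 41 copies lay in 3 places on GRCm38. An 8-copy cluster at chr3:96328425-96488893 holds the 3 named U1b genes. A 7-copy cluster at chr12:54696782-54738622 lies between the genes Eapp and Snx6, and 2 copies lie in an intron of Tex14 on chromosome 11. The other 24 copies were scattered. Of all 41, 22 overlapped no other gene, 15 lay in introns and 4 overlapped an exon of another gene, and whether reads of a host transcript were counted there was not tested. The strand setting of the counting is not given in the sources used here.

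Summed over the 41 copies, U1 had 83889 and 72471 counts in the exosome libraries and 7164 and 3535 in the tumour libraries. That is 27.4% (exact Clopper-Pearson 95% interval 27.3% to 27.6%) and 33.4% (33.2% to 33.6%) of exosome counts. In tumour it was 0.0493% (0.0481% to 0.0504%) and 0.0326% (0.0315% to 0.0337%). The exosome libraries lay far above the tumour libraries, with group means of 30.4% ± 4.19 (SD, n = 2) and 0.0409% ± 0.0118. Small nucleolar RNA genes took most tumour counts. Outside those genes the U1 share was 30.7% ± 4.24 (SD, n = 2) in exosomes and 0.669% ± 0.127 in tumour. A share shows composition only: more U1 RNA and less of other RNA cannot be told apart in these data.

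U1 copies share nearly all their bases, and the treatment of reads that match several copies is not given in the sources used here. In exosome replicate 1 the 7 copies identical to Rnu1a1 had 4913 to 5225 counts, with an SD between copies of 110.2 where the square root of the mean is 70.7. In exosome replicate 2 they had 4260 to 4397, with an SD of 41.2 against 65.8. In the tumour libraries they had 421 to 457 and 185 to 222, with SDs of 14.7 and 11.7 against 20.9 and 14.5. Copies of identical sequence had near-equal counts, seldom the same number, as the plot of identical copies shows. Keeping only 1 copy of each identical set lowered the U1 share to 16.7% ± 2.66 of exosome counts and 0.0207% ± 0.00546 of tumour counts, and the groups remained apart. The copies kept still share many bases, so this step does not remove all reads that may match several copies.

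**Figure D1:**
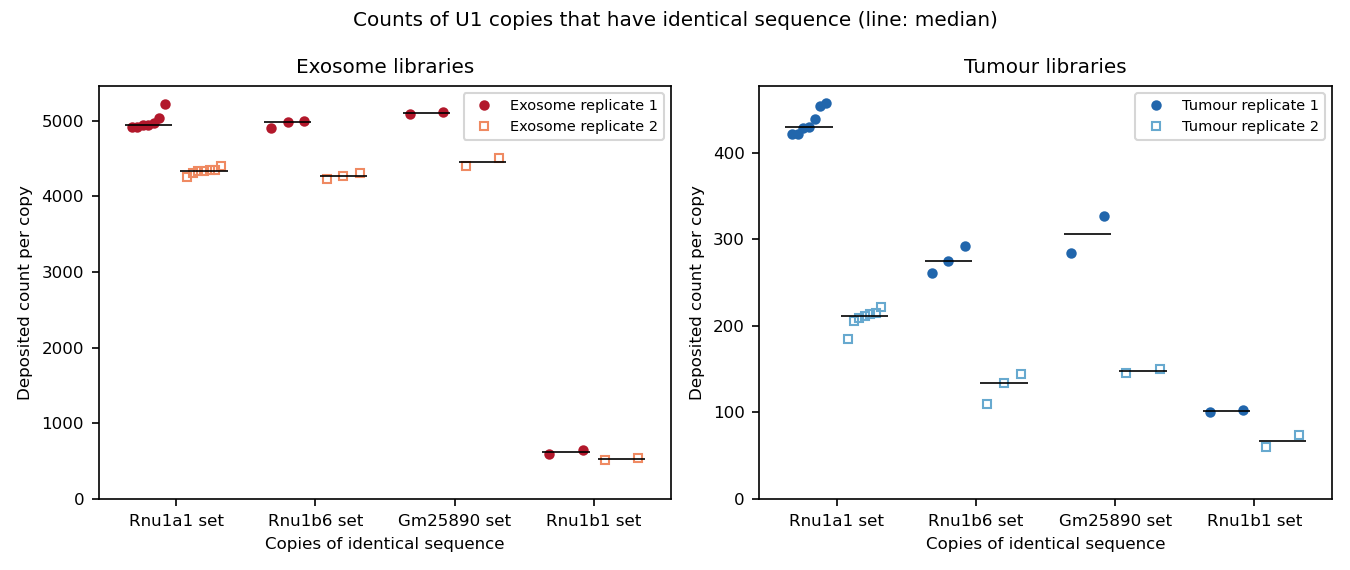
Deposited counts per copy (vertical axes, linear and different for the 2 panels) for the 4 sets of U1 copies with identical sequence, exosome libraries on the left and tumour libraries on the right. Each point is 1 copy, lines are medians, and circles and squares are replicates 1 and 2. In tumour the Rnu1b6 set lies below the Rnu1a1 set, and in exosomes those 2 sets lie at about the same height.

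Counts of single copies were tested with edgeR after TMM scaling, which sets the difference of the typical gene near 0. A gene was called at an adjusted p under 0.05 over all 1442 genes tested. Of the 41 copies 34 had enough counts to be tested, and 33 of these were higher in exosomes, where 16% of all tested genes were called higher. None was called lower (22.1% of all tested genes were), with 0 at an unadjusted p under 0.05 and 0 called lower by DESeq2 or limma. The median log2 difference of the tested copies was 6.72, beside 0.018 for all tested genes. With library totals as the only scaling all 34 were called higher, where 63.8% of tested genes were, and the medians were 9.52 and 2.75. Of the 34, 11 reached the filter level of 1.79 CPM (counts scaled to a common library size, before TMM) in neither tumour library and entered the test through the exosome libraries alone. On the scale of library totals these 11 therefore had to be higher in exosomes. With TMM 10 of them were called and Gm25704 was not.

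Over all 41 copies, 37 had a larger share in both exosome libraries than in both tumour libraries, where 14.3% of the 14421 genes with a count did. Copies of like sequence can draw on the same reads, so these are not 37 separate observations. With the copies summed to 1 feature, the log2 difference was 6.80 (SE 0.25, edgeR adjusted p = 3.51e-07 over 1409 features). With library totals it was 9.54 (SE 0.23). Without tumour replicate 1 it was 5.09 and without tumour replicate 2 it was 4.53, over 362 and 365 features.

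**Figure D2:**
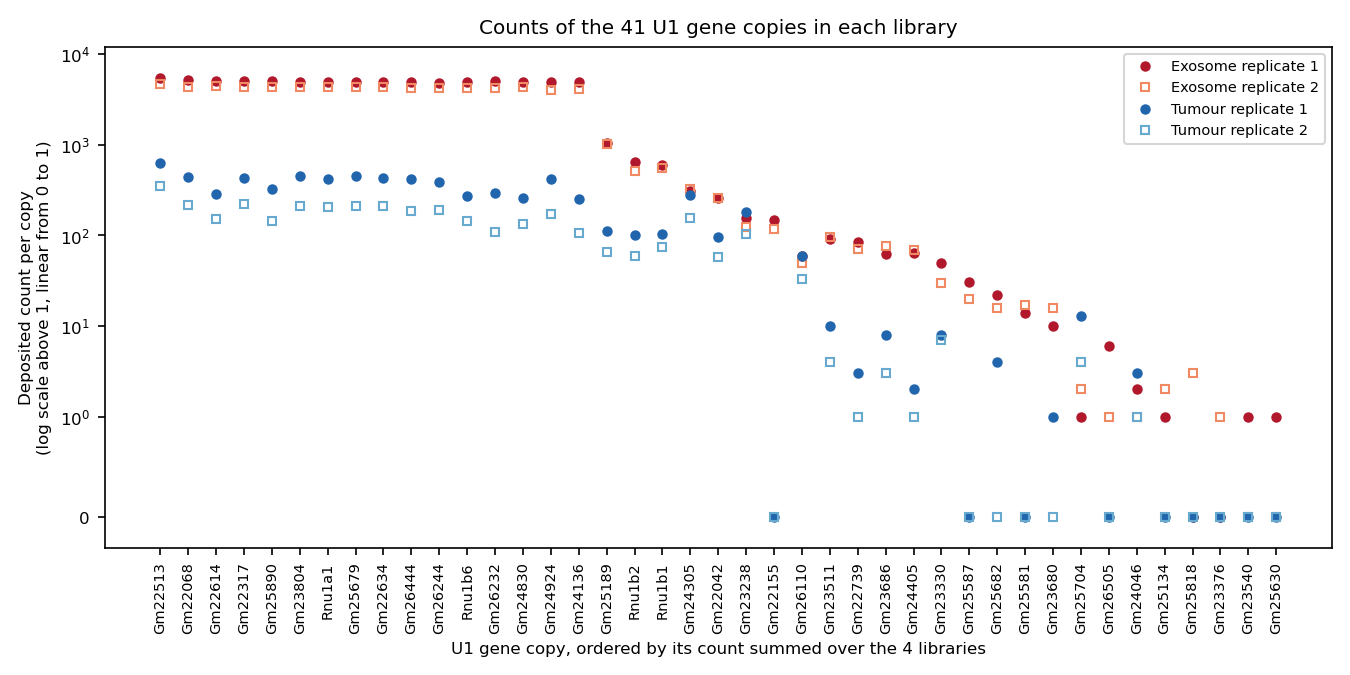
Deposited counts (vertical axis, log scale above 1) of the 41 U1 gene copies, ordered by their summed count. Filled circles and open squares are replicates 1 and 2, red for exosomes and blue for tumour. The first 16 copies lie at 4045 to 5445 counts in exosomes before a step down to 1059 and 1011, and tumour counts of the same copies lie between 106 and 634.

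Among the genes of the U1a form, Rnu1a1 had 4922 and 4397 exosome counts and 421 and 206 tumour counts. Per length this was 98159 and 123437 FPKM in exosomes against 177 and 116 FPKM in tumour. Rnu1a1 rose by 6.76 on the log2 scale (SE 0.24, edgeR adjusted p = 2.11e-07). For Rnu1a1 the value was 9.56 with library totals, and 4.82 or 4.28 without tumour replicate 1 or 2. The differences of the other copies below are on the same TMM scale. Gm22068, an identical copy in the same intron of Tex14 (chr11:87426716-87426879), had 5225 and 4344 against 439 and 215. Gm23804 (chr12:54714218-54714381) had 4965 and 4331 against 457 and 209, and Gm25679 (chr12:54719163-54719326) had 4947 and 4311 against 454 and 211. All 7 copies of this sequence rose, by 6.67 to 6.80 (largest edgeR adjusted p = 3.75e-07).

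Among the U1b genes, Rnu1b6 had 4983 and 4269 exosome counts and 275 and 144 tumour counts, and rose by 7.32 (SE 0.22, edgeR adjusted p = 1.16e-07). The identical copies Gm24830 and Gm26232 rose by 7.40 each. Gm25890 had 5094 and 4397 against 327 and 145 and rose by 7.20 (SE 0.27), and its twin Gm22614 (chr3:96488729-96488893) had 5118 and 4507 against 284 and 150 and rose by 7.33 (SE 0.22). Rnu1b1 and Rnu1b2 (chr3:96374021-96374185) were different from the rest of the cluster. Rnu1b1 had 597 and 549 exosome counts and 103 and 74 tumour counts, and Rnu1b2 had 645 and 520 against 100 and 60. They rose by 5.52 (SE 0.16) and 5.70 (SE 0.17). For each of these genes both exosome shares of the library lay above both tumour shares.

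The count ratio of the 2 forms differed between the groups. The Rnu1a1 and Rnu1b6 sequences match over their first 59 bases, and the treatment of reads that match both is not given. Whether the count ratio follows the balance of the RNAs was not tested. The median copy of the Rnu1b6 set had 4983 and 4269 exosome counts where the median copy of the Rnu1a1 set had 4947 and 4331, a ratio of 1.01 and 0.986. In tumour the medians were 275 and 134 against 430 and 211, a ratio of 0.640 and 0.635. All 3 copies of the Rnu1b6 set lay below all 7 of the Rnu1a1 set in both tumour libraries, and the ranges overlapped in both exosome libraries. The chromosome 3 cluster held 37.3% and 37.1% of U1 counts in exosomes and 26.4% and 26.1% in tumour. The chromosome 12 cluster held 36.4% and 36.6% against 43.3% and 43.7%. The 2 copies on chromosome 11 held 12.1% of U1 counts in both exosome libraries and 12.0% and 11.9% in the tumour libraries. Ratios within U1 do not depend on the scaling between libraries. The smallest p of an exact permutation test (two-sided) is 0.33 for 2 libraries a group, so these ratios are described and not tested.

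Exosome counts fell into 2 ranges when copies were split by how far from the 5′ end they match Rnu1a1 or Rnu1b6, whichever match is longer. This split was chosen after the values were seen. In 16 copies there was no difference or the first was at base 62 or later. Of the 16, the 7 copies of the Rnu1a1 set and the 3 of the Rnu1b6 set had no difference. The 16 had 4841 to 5445 counts in exosome replicate 1 and 4045 to 4632 in replicate 2. The 25 copies with a first difference at base 58 or earlier had 0 to 1059 and 0 to 1011, so the 2 sets of copies did not overlap. The 16 held 95.6% and 95.3% of U1 counts in exosomes. In tumour the same 16 held 86.3% and 83.8%, with 250 to 634 and 106 to 347 counts, and the 25 reached 276 and 157, so the 2 sets overlapped there.

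Pairs of copies that differ at 1 base are compared in the plot of 1-base differences. Substitutions are counted from 1 at the 5′ end, with the base of the compared sequence first. Gm24305 differs from the Rnu1a1 set by A26G. It had 308 and 328 exosome counts, 6.23% and 7.57% of the median Rnu1a1 copy, and 276 and 157 tumour counts, 64.2% and 74.4% of it. It was the lowest of the 7 copies of the chromosome 12 cluster in every library, by a far wider margin in exosomes than in tumour, where the counting intervals were 55.0% to 74.8% and 60.1% to 91.9%. Its log2 difference between groups was 3.41 (SE 0.18), which minus the median of the Rnu1a1 set was -3.30, or -3.29 with library totals.

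Copies near U1b gave the same order. Gm22042 differs from Gm25890 by T22C, and had 260 and 257 exosome counts (5.09% and 5.77% of the Gm25890 median) against 95 and 58 in tumour (31.1% and 39.3%). Rnu1b1 differs from Gm25890 by C33T, a base in the loop of the first stem-loop. Rnu1b1 had 11.7% and 12.3% of the Gm25890 median in exosomes and 33.7% and 50.2% in tumour. Rnu1b2 had 12.6% and 11.7% against 32.7% and 40.7%. For each of these copies both exosome percentages lay below both tumour percentages, and the counting intervals of the 2 groups did not meet.

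Copies with a first difference further along had exosome counts near those of the compared set. Gm22513 (chr12:54696782-54696945) differs from Rnu1a1 by T60C, the base that U1b also has there. It had the most counts of all copies, 5445 and 4632 in exosomes (110.1% and 107% of the Rnu1a1 median) and 634 and 347 in tumour (147.4% and 164.5%). Gm26244 and Gm24924, in introns of Rock1 and Ss18 on chromosome 18, differ from Rnu1a1 at base 152 and base 153. Gm26244 had 97.9% and 98.5% of the Rnu1a1 median in exosomes and 91.2% and 91.5% in tumour. Its tumour counting intervals, 79.3% to 104.8% and 74.9% to 111.7%, held both exosome percentages. Gm24924 had 100.1% and 93.4% in exosomes and 97.7% and 81.5% in tumour, and its groups overlapped. Gm24136 (chr3:96422733-96422897) first differs from U1b at base 108 and lacks the Sm motif TTTGTGG. It had 99.0% and 96.3% of the Rnu1b6 median in exosomes and 90.9% and 79.1% in tumour. Its tumour counting intervals, 76.3% to 108.3% and 60.7% to 102.8%, also held both exosome percentages.

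**Figure D3:**
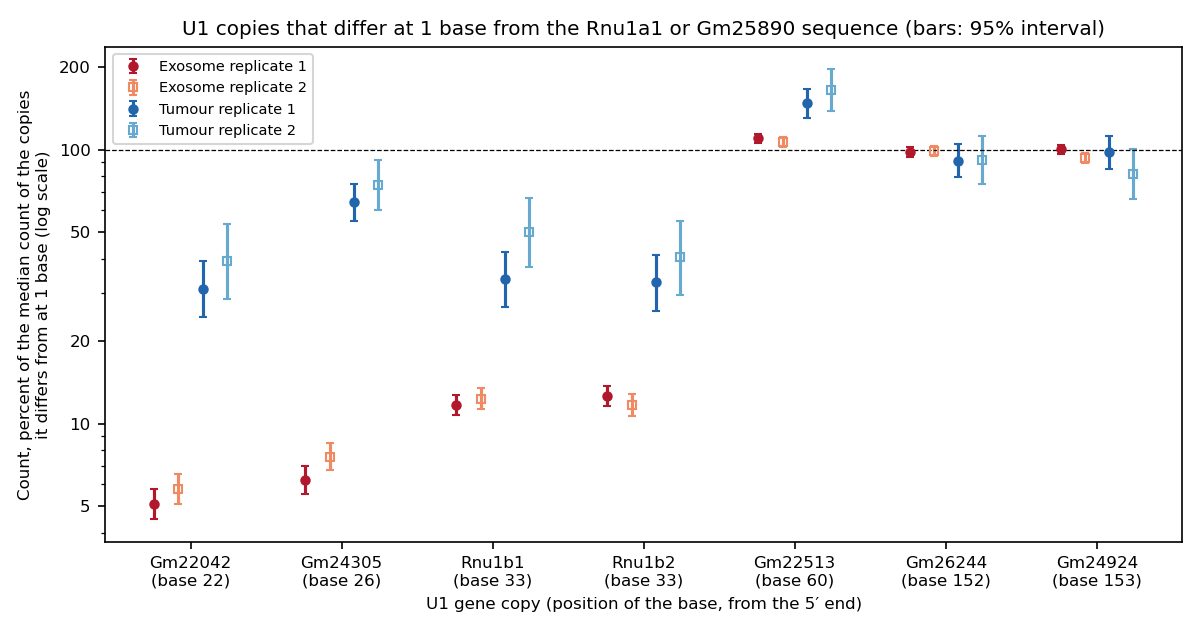
Count of each U1 copy that differs at 1 base from the Rnu1a1 set (Gm24305, Gm22513, Gm26244, Gm24924) or the Gm25890 set (Gm22042, Rnu1b1, Rnu1b2), as a percent of that set's median copy in the same library (vertical axis, log scale). Bars are exact 95% counting intervals and the dashed line is 100%. Exosome points lie at 5.09% to 12.6% for bases 22 to 33 and at 93.4% to 110.1% for bases 60 to 153, and tumour points for bases 22 to 33 lie at 31.1% to 74.4%.

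Other copies carry several differences. Gm25189 carries C58T and T59G and 4 later changes, and had 1059 and 1011 exosome counts, 21.4% and 23.3% of the Rnu1a1 median, against 112 and 66 in tumour (26.0% and 31.3%). Gm23686 (chr3:18177462-18177625), in an intron of Cyp7b1, first differs by C53T. It had 63 and 76 exosome counts, 1.27% and 1.75% of the Rnu1a1 median. In tumour it had 8 and 3 counts, 1.86% and 1.42% of that median, so the groups overlapped. They also overlapped for Gm23511, which first differs by A3T, at 1.84% and 2.22% in exosomes and 2.33% and 1.90% in tumour. Gm23238 (chr19:18732741-18732904), which carries G12A and A23T and 2 changes near its 3′ end, had 154 and 124 exosome counts (3.11% and 2.86%) against 180 and 103 in tumour (41.9% and 48.8%). Gm26110 (chr1:171027965-171028129), in an intron of Fcgr4, had 60 and 50 against 60 and 33. Gm23238 and Gm26110 had the smallest differences among the called copies, 2.81 (SE 0.17) and 3.08 (SE 0.22) on the log2 scale, and their raw counts were alike in libraries that differ many-fold in depth.

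**Figure D4:**
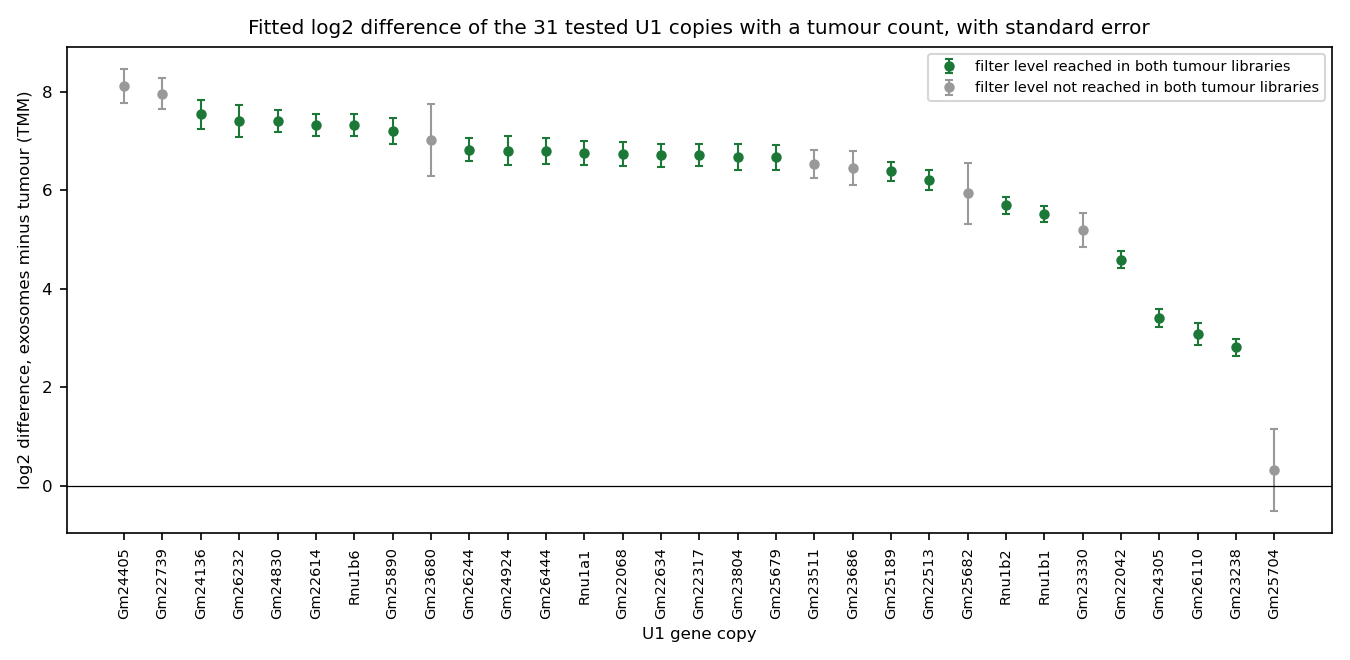
Log2 difference of U1 copies, exosomes minus tumour after TMM scaling (vertical axis), with its standard error, for the 31 tested copies that had a tumour count. Green copies passed the filter level in each tumour library and grey ones did not. Gm24136 is the highest green copy at 7.54, Gm23238 the lowest at 2.81, and Gm25704 lies near 0.

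A few diverged copies had 0 to 3 counts in each tumour library. All of U1 was far higher in exosomes. The median log2 difference of the tested copies was 9.52 with library totals and 6.72 with TMM. Gm22155 had 147 and 117 exosome counts and 0 in both tumour libraries. Against a floor of 3 counts per library, Gm22155 was at least 2110-fold higher in exosomes with library totals and at least 302-fold with TMM scaling. Gm25587 (chr10:105040273-105040438) had 31 and 20 against 0 and 0 and was at least 401-fold and 57.9-fold higher. Gm25581 (chr4:39259631-39259794) had 14 and 17 against 0 and 0 and was at least 257-fold and 36.0-fold higher. Gm22739 (chr10:4484234-4484393), in an intron of Ccdc170, had 85 and 70 against 3 and 1, and Gm24405 (chr1:178636905-178637071), in an intron of Kif26b, had 64 and 69 against 2 and 1. The fitted log2 differences of Gm22739 and Gm24405 were 7.96 (SE 0.32) and 8.11 (SE 0.35). These 5 copies were picked for their low tumour counts and entered the test through the exosome libraries, so the direction was set by the choice. In all, 9 copies were at 0 in both tumour libraries and none in both exosome libraries. Gm25587 held 0.037% and 0.028% of the U1 counts of the exosome libraries, and Gm25581 held 0.017% and 0.023%. The tumour libraries had 7164 and 3535 U1 counts, and whether 0 there follows from so few was not tested.

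At the other end, Gm25704 (chr2:133008487-133008654) was the only tested copy that was not called. It had 1 and 2 exosome counts and 13 and 4 tumour counts, a log2 difference of 0.33 (SE 0.82, edgeR adjusted p = 0.849). Scaled by library totals Gm25704 had 3.08 and was called (edgeR adjusted p = 0.0114). Its first 11 bases are not those of Rnu1a1, which also holds for Gm22155, Gm23511, Gm22739 and Gm25682, all called higher. The 7 untested copies had at most 6 exosome counts and 3 tumour counts each. The copies at the edge of the choice were Gm23376, Gm23540 and Gm25630 with 1 count in all, and beyond it the 59 genes at 0. Just outside the length range, Gm24032 and Gm23737, both of 159 bases, had 2 and 1 counts in all.

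Most genes of proteins that make, bind or process U1 had few counts, with Snrpb as the exception. Of 57 listed genes 56 were in the table and 52 had a count, but only 9 could be tested. Of the 9, 1 was called lower, Snrpb, where 22.1% of all tested genes were, and 8 were not called. The median log2 difference of the 9 was 0.816, beside 0.018 for all tested genes. Of the 3 proteins specific to the U1 particle, Snrnp70 had 2 and 0 exosome counts and 10 and 6 tumour counts, Snrpa 0 and 0 against 1 and 2, and Snrpc 2 and 0 against 1 and 4. Snrpb, a protein of the Sm ring, had 16 and 14 against 146964 and 114981, which fell by 10.27 on the log2 scale (SE 0.24, edgeR adjusted p = 7.93e-08) and was called lower under both scalings. Other Sm ring genes had at most 4 counts in any library, far below Snrpb in tumour. Small nucleolar RNA genes took most tumour counts, and whether the counts at Snrpb are of its messenger RNA was not tested. The export receptor gene Xpo1 had 6 and 5 against 8 and 14, a log2 difference of 1.78 (SE 0.63, edgeR adjusted p = 0.0631). Scaled by library totals, 7 of the 9 were called higher and 1 lower, where 63.8% and 11.5% of all tested genes were. Those 7 calls thus rest on the scaling, while Snrpb was lower under both and Srsf1 was called under neither.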

How the data were processed

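Counts and FPKM per gene were available for 2 exosome and 2 tumour libraries, grouped by the labels. Per the file headers, the deposited values are counts and FPKM. The counts were whole numbers per gene. By calculation, the FPKM equal count over gene length and library total to within 0.0806% for small nuclear RNA genes. The submitters' processing notes name TopHat2 2.0.9, Cufflinks 2.1.1, Cuffdiff and GRCm38.p4. Libraries were made by ligating adaptors to both RNA ends, reverse transcription, PCR and gel excision, per the labels' protocols. For the counting tool, its annotation, strand setting and treatment of multiply matching reads, the answer is not given in the sources used here. Tables of single samples differed from the series table in 0 values.

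Symbols, biotypes, coordinates and transcript sequences came from GENCODE M21 (GRCm38), which held 46574 of 47069 gene IDs. Sequences were aligned globally with Biopython 1.88 (match 1, mismatch -1, gap opening -2, extension -1), and identity is matches over the longer length.

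The test on counts was that of edgeR 4.0.16 (R 4.3.3), with TMM (factors 2.39 and 2.91 for exosomes, 0.391 and 0.368 for tumour), filterByExpr (minimum count 10, minimum total 15, or 1.79 CPM in at least 2 libraries), the two-sided quasi-likelihood test and Benjamini-Hochberg adjustment over 1442 genes. The SE is the absolute log2 difference divided by the square root of F. Alternatives used DESeq2 1.42.0, limma 3.58.1 on log2(FPKM + 0.1) and log2(FPKM + 1), other scalings and filters, a replicate block and each library left out. The scripts were tested on simulated data. Replicate libraries differed beyond sampling noise (chi-square per degree of freedom 18.7 for exosomes and 16.5 for tumour). Intervals of count ratios are exact Clopper-Pearson intervals of one count among both.

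Copies named in full were Rnu1a1, Rnu1b1, Rnu1b2 and Rnu1b6, the 4 others with most exosome counts, the 3 others with most tumour counts, up to 3 with at least 10 exosome counts and 0 in tumour, and identical sets. Other copies were named after their values were seen. The members and lists were chosen with earlier results of these data known. Promoter sequences were not used here.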

Additional observations from a re-analysis of the deposited data

How the results depend on the processing

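Under the 12 alternatives 31 to 34 of the 32 to 41 copies tested were called higher and 0 lower, where 1.49% (34 of 41 copies, with no filter) to 67.8% (34 of 34, limma with the smaller pseudocount) of all tested genes were called higher. The summed U1 difference lay between 4.53 and 9.56 (largest adjusted p = 0.000322 by edgeR or limma) over its 13 alternatives, and was 5.09 without tumour replicate 1, 4.53 without tumour replicate 2, and 6.87 and 6.79 without exosome replicate 1 or 2. A group left with 1 library is assumed to vary like the other. For Rnu1a1, Rnu1b1, Rnu1b2 and Rnu1b6 the difference ranged from 3.27 to 10.14 over 48 alternatives, all with the same direction and call. The lowest values came without a tumour library and the highest from limma or library totals. The other copies named in full were picked by their counts, so their stability is not reported. The replicate block, which rests on replicate numbers alone (correlation of the number's deviations -0.020), gave 33 of 34 copies higher (16.9% of all tested genes) and a summed difference of 6.83. The U1 share moved to 16.7% of exosome counts and 0.0207% of tumour counts with 1 copy per identical set, to 0.669% in tumour outside small nucleolar RNA genes, and to 0.0205% in tumour as a share of summed FPKM. Without replicate 1 or 2 the exosome share was 33.4% and 27.4% and the tumour share 0.0326% and 0.0493%. Depth limits the low copies, most of all in exosomes, whose libraries hold 305751 and 217201 counts.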

Other observations

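Small nuclear RNA genes outside the length range can also resemble U1. Of 60 such genes that were at least 70% identical to Rnu1a1 or Rnu1b6, 10 had a count. They summed to 36 and 33 exosome counts and 30 and 14 tumour counts, so nearly all U1 counts lay in the length range. Gm22220, of 149 bases and 79.3% identity, had the most, with 8 and 8 in exosomes against 25 and 13 in tumour.

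Rnu11, the gene of U11, which recognises the 5′ splice site of the minor introns as U1 does for the major ones, had 0 counts in all 4 libraries.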
